A study of Mus musculus with 8 samples.

Results

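The Myc and Mxd network is a family of transcription factors that pair with Max or with Mlx, and 10 of its genes were followed in cultures of mouse spermatogonial stem cells (SSCs), from which sperm production is renewed. The genes were chosen by name, as the activators *Myc*, *Mycn* and *Mycl*, the antagonists *Mxd1*, *Mxd3*, *Mxd4*, *Mxi1* and *Mnt*, and the Mlx arm with *Mlx* and *Mlxip*. All 10 were among the 55421 genes of the count table and among the 20477 genes with enough reads to be tested. RNA was sequenced from 4 conditions with 2 libraries each. Cultures were begun from testes of C57BL/6XDBA/2 F1 hybrid pups 6 days of age and carried no engineered allele. Their feeder layer was irradiated mouse embryonic fibroblasts (MEFs), whose RNA a library can hold. Veh cells received vehicle in complete SSC medium, which holds growth factors such as GDNF and bFGF. RA cells received 100 nM retinoic acid (RA) in the same medium. NR cells were kept under nutrient restriction (NR) in 90% Earle's balanced salt solution (EBSS) with 10% complete SSC medium, which thins the growth factors along with the nutrients. NRRA cells received 100 nM RA in that restricted medium. All treatments lasted 48 h. The study asked whether nutrient restriction acts together with RA on entry into meiosis, and the comparisons below ask how the Myc network stood in each condition.

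Myc proteins bind DNA only as pairs with Max, chiefly at the E-box CACGTG, and raise the expression of genes for ribosome production, metabolism and cell growth. Mxd proteins, Mxi1 and Mnt compete for Max and for the same sites and recruit Sin3 and histone deacetylases, which lower expression, and Mxd genes are known to come on as cells leave proliferation and differentiate. Mlx pairs with some Mxd proteins and with Mlxip (MondoA) and Mlxipl (ChREBP), which sense glucose derivatives. *Mycn* is known for its expression in embryonic and stem cells, including undifferentiated spermatogonia grown with GDNF.

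Levels are given in CPM, a gene's counts relative to the library total after scaling of the totals with TMM factors. A gene was called when edgeR's quasi-likelihood test gave an adjusted p under 0.05, with adjustment over all 20477 genes of that comparison, and a stricter call also asked for a 2-fold difference. Library totals ran from 19261333 to 30023585 counts, and the lowest count of a network gene was 75, for *Mycl* in a Veh library. Germ cell RNA was present in all libraries, with *Ddx4*, a germ cell helicase, between 131 and 191 CPM. Summed markers of undifferentiated spermatogonia stood at 581 (Veh), 312 (RA), 627 (NR) and 182 CPM (NRRA) on average, and those of differentiating spermatogonia at 107, 946, 160 and 1440 CPM. The latter sum was led by *Stra8* and *Kit* in RA and NRRA. Of its 4 markers, 2 were higher in RA than in Veh and 2, *Sohlh1* and *Dnmt3b*, did not pass. *Sohlh1* stood at 25.9 and 23.0 CPM in Veh, 22.1 and 25.5 in RA, and 50.9 and 51.6 in NR. Fibroblast markers summed to 8860, 7690, 20000 and 17900 CPM for Veh, RA, NR and NRRA, led by collagen genes. *S100a4*, the fibroblast marker named by the study, stood between 0.465 and 3.22 CPM, highest in Veh and lowest in NRRA. *Lum*, another of these markers, stood at 208 and 260 CPM in Veh, 260 and 251 in NR, and 141 and 138 in NRRA. In such bulk libraries, fewer cells of a type and less RNA per cell cannot be told apart.

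Promoter windows were searched for the site that the network itself binds, so sites elsewhere in a gene were not seen. The windows were taken from RefSeq on GRCm38.p6 and run from 250 bases before to 50 bases after a gene's start; 9 of the 10 genes matched, all but *Myc*. The E-box CACGTG, which reads the same on both strands, was found in 3 of the 9, namely *Mxd4*, *Mnt* and *Mlx*, against 8.09% of the genes with a window. It was also found in 2 of the 3 further partners, *Max* and *Mlxipl*, and in 9 of 22 Myc target genes with a window. A further window of *Mlxipl* and the window of the Mlx target *Txnip* did not hold it. The 5 stretches below show the E-box in capitals with 20 bases on each side, for the 3 network genes, the partner *Mlxipl* and the Mlx target *Arrdc4*. They are written 5′ to 3′ on the gene's strand.
Mxd4, chr5:34187904-34187949, minus strand, 219 bases before the start: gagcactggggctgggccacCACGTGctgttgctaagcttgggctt
Mnt, chr11:74830781-74830826, plus strand, 123 bases before the start: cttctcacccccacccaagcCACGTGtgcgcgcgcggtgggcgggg
Mlx, chr11:101087230-101087275, plus strand, 40 bases before the start: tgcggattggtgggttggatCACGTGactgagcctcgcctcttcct
Mlxipl, chr5:135089772-135089817, plus strand, 98 bases before the start: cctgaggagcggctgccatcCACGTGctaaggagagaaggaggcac
Arrdc4, chr7:68749406-68749451, minus strand, 193 bases before the start: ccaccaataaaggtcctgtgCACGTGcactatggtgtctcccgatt

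The *Mycn* window held no CACGTG. It held 2 copies of TTTGGCGC, the type of site to which E2F factors bind, 183 and 168 bases before the start. This motif was searched on both strands after the window had been read, and 0.585% of the genes with a window hold it. The 120 bases around the pair are shown because *Mycn* is the network gene with the largest changes, with both copies in capitals.
Mycn, chr12:12941967-12942086, minus strand: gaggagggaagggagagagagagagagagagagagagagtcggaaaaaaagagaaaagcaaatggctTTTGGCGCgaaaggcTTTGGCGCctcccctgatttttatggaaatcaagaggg

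The 3 activators behaved differently from each other. *Mycn* was 3.34-fold lower in RA and 6.91-fold lower in NRRA than in Veh, *Myc* was 1.67-fold lower in NRRA, and *Mycl* was 2.47-fold higher in NRRA and higher still in NR. Among the antagonists, *Mxd4* and *Mxd1* were higher under nutrient restriction and *Mxd3* was lower, while *Mxi1* and *Mnt* moved by less than 1.3-fold in all comparisons. *Mlx* was 1.28-fold lower in NRRA, and *Mlxip* did not pass edgeR's test in any of the 6 pairwise comparisons of the main analysis.

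**Figure D1:**
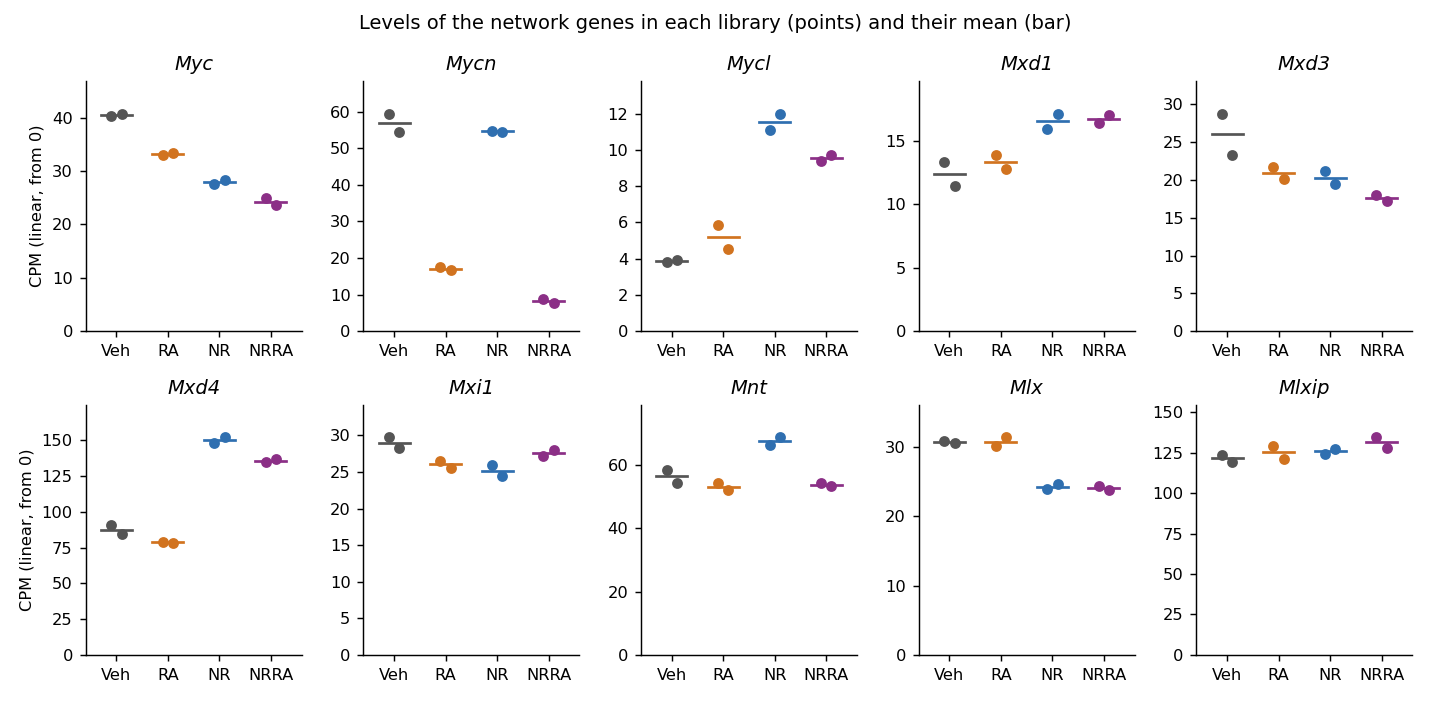
Levels of the 10 network genes in CPM (vertical axes, linear, each from 0) in the 4 conditions (horizontal axes). Points are the 8 libraries and bars the mean of the 2 libraries of a condition. *Mycn* is low in both conditions with RA, and *Mycl* and *Mxd4* are high in both with nutrient restriction.

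Against Veh, RA left 1 of the 10 genes higher and 4 lower, where 19.8% of all tested genes were higher and 23.4% lower. With library totals in place of TMM factors, this split was 2 higher and 2 lower. In all, 2 genes were called without the first Veh library and 3 without the second RA library. The 2-fold call held for 1 gene, *Mycn*, against 7.49% of all genes. Nutrient restriction left 4 higher and 4 lower, against 21.7% and 22.2% of all genes, and 1, *Mycl*, passed 2-fold (8.29% of all). In NRRA, 3 were higher and 4 lower than in Veh, against 30.1% and 28.7% of all genes. *Mycn* and *Mycl* were the 2 past 2-fold, where 15.9% of all genes were. The median log2 difference of the 10 genes was -0.12 for RA, -0.0032 for NR and -0.07 for NRRA, beside -0.02, 0.01 and 0.03 over all tested genes. The 3 comparisons share the Veh libraries, and these 2 libraries differed most from each other. Measured against counts in proportion to the totals, their chi-square per gene was 3.93. It was 2.12 for RA, 1.58 for NR and 1.73 for NRRA. The test takes a common spread per gene for all conditions, so its standard errors do not show this difference.

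NRRA was then set against each treatment alone. Compared with RA, 3 of the 10 genes were higher and 4 lower, against 20.9% and 19.4% of all genes, and 1 passed 2-fold (8.29% of all). Compared with NR, 5 were called and all 5 were lower, where 21.3% of all genes were higher and 22.1% lower, and 1 passed 2-fold (8.7% of all). With library totals this second split was 2 higher, *Mxi1* and *Mlxip*, and 2 lower, and the calls numbered 2 without the second NR library, 3 without the first NRRA and 2 without the second NRRA library. The 1 gene past 2-fold was *Mycn* in both, and against RA 2 genes passed without the first RA library. Between the single treatments, NR and RA, 7 genes differed (48.3% of all genes did), and 2 of them, *Mycn* and *Mycl*, by at least 2-fold (12.5% of all), though 1 did without the second RA library.

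**Figure D2:**
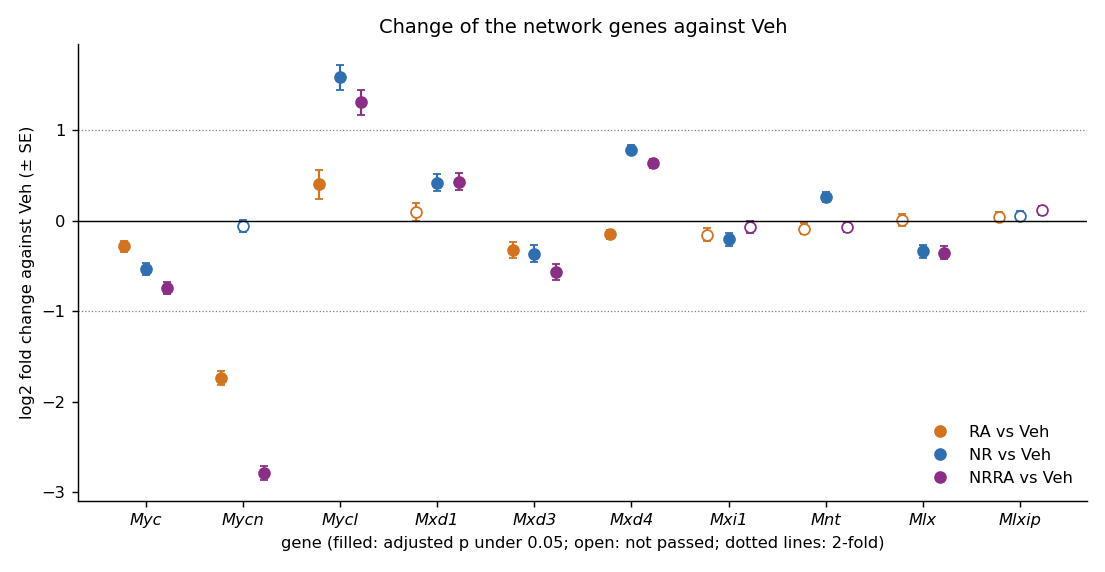
Log2 fold change against Veh (vertical axis) of the 10 network genes (horizontal axis) in RA, NR and NRRA, with standard errors as bars. Filled points passed an adjusted p of 0.05, open points did not, and dotted lines mark 2-fold. *Mycn* lies below the lower line in RA (-1.74) and NRRA (-2.79), and *Mycl* above the upper line in NR (1.58) and NRRA (1.31).

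*Mycn* (chr12:12936093-12941914, minus strand, GRCm38) encodes N-Myc. Its level was 59.4 and 54.4 CPM in the Veh libraries and 54.8 and 54.5 CPM in the NR libraries. It was 17.4 and 16.8 CPM in the RA libraries and 8.86 and 7.67 CPM in the NRRA libraries. Libraries with RA thus lay far below those without, NRRA lay below RA, and Veh and NR overlapped. The log2 fold change was -1.74 ± 0.07 (SE) for RA against Veh (edgeR, adjusted p = 3.01e-16) and -2.79 ± 0.08 for NRRA against Veh (edgeR, adjusted p = 1.46e-20). NR and Veh differed by -0.06 ± 0.06 on the log2 scale, which did not pass (edgeR, adjusted p = 0.479). NRRA was 2.07-fold lower than RA, a log2 fold change of -1.05 ± 0.09 (edgeR, adjusted p = 4.79e-10). Without 1 NRRA library, the second, the NRRA-to-RA difference of *Mycn* was no longer 2-fold, and 0 network genes were. Summed markers of undifferentiated spermatogonia moved in the same order, with Veh and NR high, RA lower and NRRA lowest; 6 of 6 were lower in RA than in Veh and 5 of 6 in NRRA. From RA to NRRA the single markers were mixed, with 3 of 6 lower and 2 of 6 higher; *Etv5* went from 101 and 103 to 28.5 and 27.3 CPM, and *Id4* from 4.23 and 3.78 to 14.6 and 15.8 CPM. The part of such cells in the *Mycn* result was not tested.

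*Myc* (chr15:61985391-61990374, plus strand) encodes c-Myc. Veh libraries held 40.3 and 40.8 CPM, RA libraries 33.0 and 33.4, NR libraries 27.6 and 28.3, and NRRA libraries 24.9 and 23.6. No library overlapped with one of another condition, and each neighbour in this order passed the test. The marker sums given above moved between the same conditions, and their part in the *Myc* result was not tested. Relative to Veh, RA gave a log2 fold change of -0.29 ± 0.06 (edgeR, adjusted p = 0.000738), NR gave -0.53 ± 0.07 (adjusted p = 2.15e-07) and NRRA gave -0.74 ± 0.07 (adjusted p = 2.4e-10). The step from NR to NRRA was the smallest, at -0.21 ± 0.07 (edgeR, adjusted p = 0.0132). It missed the threshold with library totals (adjusted p = 0.123), without the second NR library (adjusted p = 0.0902) and without the second NRRA library (adjusted p = 0.15).

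*Mycl* (chr4:122995652-123002485, plus strand) encodes L-Myc and was the least expressed network gene in Veh, both in CPM and per kb of exon. It measured 3.81 and 3.91 CPM for Veh, 5.86 and 4.54 for RA, 11.1 and 12.0 for NR, and 9.36 and 9.73 for NRRA. All 4 restricted libraries lay above all 4 in complete medium. NR lay 1.58 ± 0.14 above Veh on the log2 scale (edgeR, adjusted p = 4.19e-10), and NRRA 1.31 ± 0.14 above (adjusted p = 7.87e-09). The 0.40 ± 0.16 of RA against Veh passed narrowly (edgeR, adjusted p = 0.0447). It was lost with DESeq2 (adjusted p = 0.114), and with edgeR without the low-count filter (adjusted p = 0.0841) and with 2 groups only (adjusted p = 0.0626). Leaving out the first RA library (log2 0.23), either Veh library (0.40 and 0.43) or either NRRA library (0.40 and 0.40) lost it as well. NRRA was 0.28 ± 0.11 lower than NR on the log2 scale (edgeR, adjusted p = 0.0388), a call also lost with DESeq2 (adjusted p = 0.175). With edgeR it was lost with library totals (adjusted p = 0.142), without the low-count filter (0.058) and with the GC and length trend removed (0.0501). The call was lost, too, without the second NR library (log2 -0.23) and without either NRRA library (-0.25 and -0.30). Summed fibroblast markers were higher in the same libraries, with 6 of 8 markers higher in NR and 6 of 8 in NRRA than in Veh, and their part in the *Mycl* result was not tested.

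*Mxd4* (chr5:34173883-34187720, minus strand) encodes the antagonist Mad4 and showed the largest rise among the antagonists. Veh libraries held 90.5 and 84.3 CPM and RA libraries 79.1 and 78.2. NR libraries held 148 and 152 CPM and NRRA libraries 135 and 137. Restricted libraries thus lay well above all libraries in complete medium. On the log2 scale, NR exceeded Veh by 0.78 ± 0.05 (edgeR, adjusted p = 6.64e-13) and NRRA did so by 0.63 ± 0.05 (adjusted p = 2.07e-11). RA had slightly lower levels, by -0.15 ± 0.05 against Veh (edgeR, adjusted p = 0.0178). This RA call was lost with library totals (adjusted p = 0.44) and with 2 groups only (adjusted p = 0.139). It was also lost without the first Veh (adjusted p = 0.261), the second RA (0.105), the first NR (0.0621) or the second NR library (0.0651). As for *Mycl*, summed fibroblast markers, though neither *S100a4* nor *Lum*, were higher in the restricted libraries. Their part in the *Mxd4* result was not tested. *Gm42846* on the opposite strand overlaps 6.1% of the exon bases of *Mxd4*.

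*Mxd1* (chr6:86647042-86669161, minus strand), the gene for Mad1, measured 13.3 and 11.5 CPM for Veh, 13.9 and 12.8 for RA, 15.9 and 17.2 for NR, and 16.4 and 17.0 for NRRA. Veh overlapped with RA, NR overlapped with NRRA, and the restricted pair lay higher. Summed fibroblast markers, though neither *S100a4* nor *Lum*, were higher in the same libraries. The part of these markers in the *Mxd1* result was not tested. The log2 fold change of *Mxd1* was 0.42 ± 0.10 for NR against Veh (edgeR, adjusted p = 0.000953) and 0.43 ± 0.09 for NRRA against Veh (adjusted p = 0.00033).

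*Mxd3* (chr13:55325168-55329823, minus strand), whose product is known from dividing cells, went the other way. Veh libraries held 28.8 and 23.3 CPM, RA libraries 21.7 and 20.1, NR libraries 21.1 and 19.4, and NRRA libraries 18.0 and 17.2. Every treated library lay below both Veh libraries, and RA and NR overlapped. As for *Myc*, the part of the marker sums in the *Mxd3* result was not tested. Compared with Veh, RA gave -0.33 ± 0.09 on the log2 scale (edgeR, adjusted p = 0.00437), NR -0.37 ± 0.09 (adjusted p = 0.00164) and NRRA -0.57 ± 0.09 (adjusted p = 4.81e-06). With library totals the RA difference was -0.22 and not called. Without the first Veh library, the calls for RA (adjusted p = 0.265) and NR (adjusted p = 0.129) were lost, as were that for RA without the second RA library (adjusted p = 0.0901) and that for NR without the second NR library (adjusted p = 0.0616).

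*Mxi1* (chr19:53310518-53375810, plus strand), which encodes Mad2, varied by less than 1.3-fold between conditions. It measured 29.7 and 28.2 CPM for Veh, 26.5 and 25.6 for RA, 25.9 and 24.4 for NR, and 27.1 and 28.0 for NRRA. The NR level was -0.21 ± 0.07 from Veh on the log2 scale (edgeR, adjusted p = 0.0215), which DESeq2 did not call (adjusted p = 0.0844). With edgeR it was lost with library totals (adjusted p = 0.051), without the low-count filter (0.0627) and with 2 groups only (0.0576). The call was also lost without the first Veh library (log2 -0.15) or either NR library (-0.23 and -0.15). None of the neighbours in the order of its levels differed past the threshold with edgeR; the smallest of these adjusted p was 0.344. With the GC and length trend removed, however, NRRA was -0.20 (adjusted p = 0.0081) and RA -0.22 (adjusted p = 0.00843) from Veh, and the interaction was 0.32 (adjusted p = 0.017), all 3 of them called, against -0.07, -0.16 and 0.29 without this step. The interaction was also called without the second Veh library (0.30, adjusted p = 0.0385), and NRRA against NR was called with library totals (0.22, adjusted p = 0.012).

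*Mnt* (chr11:74830920-74845725, plus strand), a broadly expressed antagonist, was highest in NR. Veh libraries held 58.4 and 54.4 CPM, RA libraries 54.3 and 52.0, NR libraries 66.4 and 68.7, and NRRA libraries 54.3 and 53.3. Both NR libraries lay above all others, and the NRRA and RA libraries overlapped. NR was 0.26 ± 0.06 above Veh on the log2 scale (edgeR, adjusted p = 0.000544), and NRRA was -0.33 ± 0.06 from NR (adjusted p = 2.04e-05). The differences of RA and NRRA from Veh, -0.09 ± 0.06 and -0.07 ± 0.06, did not pass.

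*Mlx* (chr11:101087277-101092207, plus strand) fell under restriction alone and with RA. It measured 30.9 and 30.6 CPM for Veh, 30.1 and 31.4 for RA, 23.9 and 24.6 for NR, and 24.3 and 23.8 for NRRA. NR differed from Veh by -0.34 ± 0.07 on the log2 scale (edgeR, adjusted p = 0.000291) and NRRA by -0.35 ± 0.07 (adjusted p = 7.71e-05). RA and Veh lay 0.00 ± 0.07 apart (edgeR, adjusted p = 0.983). The fibroblast marker sums given above moved between the same conditions, and their part in the *Mlx* result was not tested. Exons of *Psmc3ip*, a meiotic recombination gene on the opposite strand, cover 19.3% of the exon bases of *Mlx*, and the strand setting of the read counting is not given in the sources used here, so this level is uncertain.

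*Mlxip* (chr5:123394798-123457932, plus strand) held 123 and 119 CPM with vehicle, 129 and 121 with RA, 124 and 127 under restriction, and 134 and 128 under both. The difference nearest to a call was NRRA against Veh, 0.11 ± 0.05 on the log2 scale (edgeR, adjusted p = 0.0509). With edgeR it passed with library totals (0.23, adjusted p = 0.000228) and, barely, with the replicate block (0.11, adjusted p = 0.049). It also passed with the GC and length trend removed (0.12, adjusted p = 0.00665), and it was 0.14 without the first Veh library. With that trend removed, RA against Veh (0.096, adjusted p = 0.0454) and NRRA against NR (0.10, adjusted p = 0.0257) were called too. Both were also called with library totals (0.14, adjusted p = 0.0186, and 0.14, adjusted p = 0.0156).

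The response to RA was then compared between media, by the interaction, that is, the log2 difference of NRRA and NR minus that of RA and Veh. It passed for 3 of the 10 genes, where 13.0% of all genes passed, and all 3 values were negative. For *Mycn*, RA lowered the level by 3.34-fold in complete medium and by 6.63-fold in restricted medium, and the interaction was -0.99 ± 0.11 (edgeR, adjusted p = 3.9e-07). Its call held in every alternative analysis run. For *Mycl* the RA difference was 0.40 in complete and -0.28 in restricted medium, with an interaction of -0.68 ± 0.19 (edgeR, adjusted p = 0.018). DESeq2 did not call it (adjusted p = 0.0641), nor was it called without the first RA (adjusted p = 0.121), the second NR (adjusted p = 0.0615) or the first NRRA library (adjusted p = 0.0553), each of which left 1 gene called. *Mnt* passed by a small margin, at -0.24 ± 0.08 (edgeR, adjusted p = 0.0484), and was lost with DESeq2 (adjusted p = 0.0964). With edgeR it was lost without the low-count filter (adjusted p = 0.0897) and with the replicate block (adjusted p = 0.0518). Leaving out any 1 of the 6 RA, NR and NRRA libraries lost it too (-0.30 to -0.21). The interaction of *Myc* was 0.08 ± 0.09 (edgeR, adjusted p = 0.663) and that of *Mxd4* 0.01 ± 0.07 (adjusted p = 0.972).

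**Figure D3:**
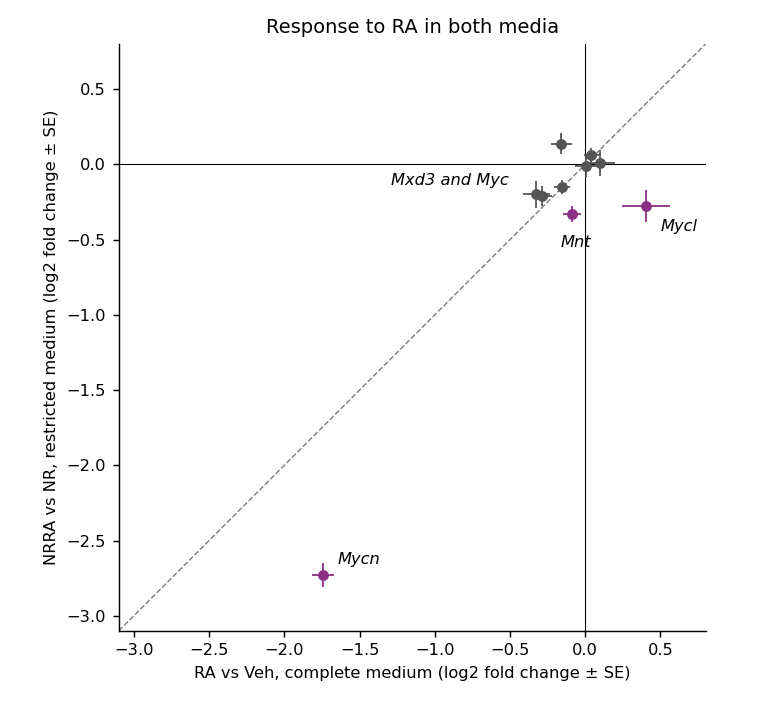
Log2 fold change with RA in complete medium (RA vs Veh, horizontal axis) and in restricted medium (NRRA vs NR, vertical axis) for the 10 network genes, with standard errors as bars and equal responses on the dashed line. Purple points passed the test of the interaction; *Mycn* lies farthest from the line, at -1.74 and -2.73.

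The make-up of the Myc genes shifted with these changes. Genes can be compared with each other only per length, so CPM was divided by the kilobases of merged exons, and each gene's part in the sum of *Myc*, *Mycn* and *Mycl* was taken in each library. *Mycn* made up 53.4% and 50.8% of the sum in the Veh libraries and 56.4% and 55.2% in the NR libraries. With RA it made up 28.0% and 27.5% in complete medium, and a mean of 18.2% ± 1.2 (SD, n = 2) in restricted medium. *Myc* made up 43.8% and 46.2% for Veh, 64.3% and 66.4% for RA, 34.4% and 34.8% for NR, and 64.6% and 64.7% for NRRA. Thus *Mycn* held the largest part in both conditions without RA and *Myc* in both with RA. *Mycl* made up 2.79% and 2.98% in the Veh libraries and 16.4% and 18.0% in the NRRA libraries by merged exons. By coding length its mean part was 4.71% in Veh and 26.7% in NRRA, above the 18.4% of *Mycn* there, so the order of *Mycl* and *Mycn* in NRRA depends on the length used. These shares have no test. Among all 10 genes, *Mycn* had the highest level per kb of merged exons in Veh, at 17.3 ± 1.1 CPM per kb. Its top rank there depends on the length used, since *Mxd4* has 8483 bases of merged exons and 627 of coding sequence. In NRRA, *Mycn* stood at 2.51 ± 0.26 by merged exons, near *Mycl* at 2.36 ± 0.06 and *Mxd1* at 2.36 ± 0.06 and below the other 7.

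The 3 Myc genes together summed to 33.1 ± 0.9, 18.7 ± 0.3, 29.7 ± 0.3 and 13.8 ± 0.5 CPM per kb (SD, n = 2) for Veh, RA, NR and NRRA. The 5 antagonists *Mxd1*, *Mxd3*, *Mxd4*, *Mxi1* and *Mnt* summed to 39.5 ± 3.1, 35.3 ± 1.1, 46.9 ± 0.1 and 41.5 ± 0.1 CPM per kb. The ratio of the first sum to the second was 0.841 ± 0.042 in Veh, 0.634 ± 0.004 in NR, 0.530 ± 0.009 in RA and 0.333 ± 0.012 in NRRA, and the libraries of the 4 conditions did not overlap. The size of the ratio depends on the length used, since *Mxd4* has 8483 bases of merged exons and 627 of coding sequence. By coding length it was 0.282 in Veh, 0.194 in NR, 0.174 in RA and 0.0979 in NRRA, and by the longest transcript 0.730, 0.530, 0.455 and 0.269, in the same order. These are levels of RNA, not of protein, and each is taken over all cells of a library, feeder cells included. The spermatogonial and fibroblast marker sums moved between the same conditions, and their part in the shares and the ratio was not tested.

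**Figure D4:**
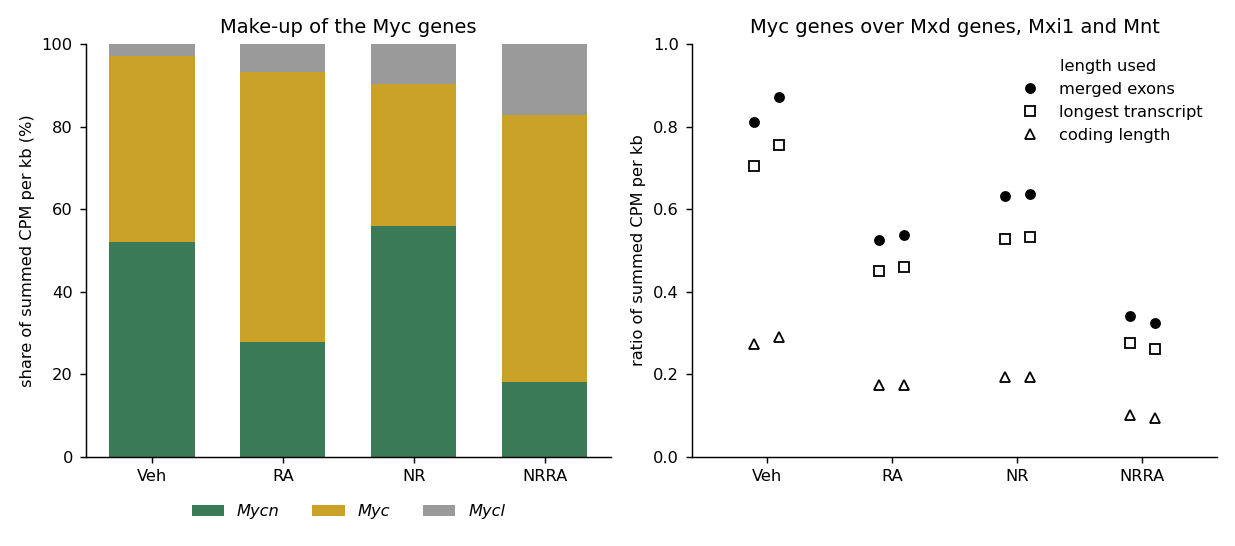
Left, mean share (%, from 0) of *Mycn*, *Myc* and *Mycl* in their summed CPM per kb of merged exons in the 4 conditions. Right, ratio of the summed CPM per kb of the 3 Myc genes to that of *Mxd1*, *Mxd3*, *Mxd4*, *Mxi1* and *Mnt* in each library, with symbols for 3 definitions of gene length; by all 3 it is highest in Veh and lowest in NRRA.

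Further partners of the network changed as well. *Max*, the partner of all Myc proteins, measured 79.3 and 78.0 CPM for Veh, 63.7 and 60.7 for RA, 82.2 and 77.7 for NR, and 61.1 and 65.3 for NRRA. It was lower in both conditions with RA, by -0.34 ± 0.06 in RA (edgeR, adjusted p = 1.97e-05) and -0.31 ± 0.06 in NRRA against Veh (adjusted p = 2.22e-05). *Mga*, a Max partner known from a Polycomb complex that silences germ cell genes, rose from 162 and 180 CPM with vehicle to 209 and 234 with RA, 260 and 257 under restriction, and 248 and 252 under both. Its log2 fold change was 0.55 ± 0.05 in NRRA (edgeR, adjusted p = 1.04e-09), and the interaction was -0.42 ± 0.07 (adjusted p = 0.000162). *Mlxipl*, the gene for the glucose-responsive ChREBP, stood at 15.1 and 13.4 CPM in Veh and at 31.8 and 32.3 CPM in NRRA, with RA and NR between. NRRA was 2.24-fold above Veh (log2 1.17 ± 0.08, edgeR, adjusted p = 1.26e-12), and the RA and NR libraries did not differ past the threshold (adjusted p = 0.149).

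Genes known to respond to Myc were mostly lower in all 3 treatments. Of 28 such genes, RA left 22 lower and 2 higher than Veh, NR left 22 called, all of them lower, and NRRA left 25 lower and 2 higher. Of all tested genes, RA left 23.4% lower and 19.8% higher, NR 22.2% and 21.7%, and NRRA 28.7% and 30.1%. Their median log2 fold change was -0.36 with RA, -0.36 with NR and -0.67 with NRRA, where the medians over all genes were -0.02, 0.01 and 0.03. The largest change was that of *Odc1*, ornithine decarboxylase of polyamine synthesis, from 445 and 453 CPM in Veh and 358 and 358 in RA to 96.5 and 95.2 in NR and 88.4 and 91.6 in NRRA. *Odc1* was thus low in both restricted media, 4.99-fold lower in NRRA than in Veh (edgeR, adjusted p = 2.06e-24). *Ldha*, lactate dehydrogenase, held 373 and 352 CPM in Veh and 173 and 173 in NRRA, with RA and NR between (2.10-fold lower in NRRA, edgeR, adjusted p = 4.93e-16). *Shmt2*, the mitochondrial enzyme of serine and one-carbon metabolism, held 207 and 186 CPM in Veh and 94.9 and 96.0 in NRRA (2.06-fold lower, edgeR, adjusted p = 5.01e-15). The 2 genes higher in NRRA were *Tert*, of telomerase, by 0.34 on the log2 scale, and *Tfrc*, the transferrin receptor, by 0.74; they were named after their values were seen. The fibroblast and spermatogonial marker sums given above moved in the same conditions, and their part in these list results was not tested.

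Of 8 coactivator subunits that Myc recruits, 6 were called in RA, all of them lower, while 3 were higher and 5 lower in NR, and 1 was higher and 7 lower in NRRA, beside the same shares of all genes as for the Myc targets. The median log2 fold change of the 8 was -0.29 with RA, -0.20 with NR and -0.36 with NRRA, where those over all genes were -0.02, 0.01 and 0.03. The helicase genes *Ruvbl1* and *Ruvbl2* and the acetyltransferase gene *Kat2a* were 1.59-fold, 1.57-fold and 1.58-fold lower in NRRA than in Veh (edgeR, adjusted p = 3.55e-10, 2.78e-10 and 7.57e-12). Among 8 corepressor subunits the directions in NRRA were mixed, with 3 higher and 4 lower, against 30.1% and 28.7% of all genes. Their median there was -0.03, against 0.03 over all genes. In RA, 1 was higher and 3 were lower, against 19.8% and 23.4% of all genes, with a median of -0.005. In NR, 4 were called, all of them lower, against 22.2% of all genes lower, with a median of -0.11. *Sap18*, a Sin3-associated subunit, was -0.29 ± 0.05 and *Hdac2*, a histone deacetylase, 0.23 ± 0.05 from Veh in NRRA on the log2 scale, and both passed.

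Of 12 genes whose products act on Myc protein, 4 were higher and 4 lower in NRRA, close to the 30.1% higher and 28.7% lower of all genes, so the count does not set the list apart. Its median log2 fold change there was -0.09, against 0.03 over all genes. *Cip2a*, whose product shields Myc from the phosphatase PP2A, was 1.66-fold higher (edgeR, adjusted p = 3.3e-09), with 39.3 and 47.6 CPM for Veh, 62.4 and 70.5 for RA, 47.4 and 42.6 for NR, and 73.7 and 70.5 for NRRA. *Pim1*, a kinase that acts on Myc, was 1.62-fold higher in NRRA (edgeR, adjusted p = 4.62e-12), with 139 and 122 CPM for Veh, 189 and 190 for RA, 219 and 221 for NR, and 215 and 208 for NRRA. *Bin1*, a Myc-binding tumour suppressor, was 1.62-fold lower (edgeR, adjusted p = 2.52e-12), with 139 and 134 CPM for Veh, 141 and 137 for RA, 79.3 and 82.1 for NR, and 85.2 and 83.5 for NRRA. Thus *Cip2a* was high in the conditions with RA and *Bin1* low in those with restriction.

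The glucose-responsive targets of the Mlx arm, *Txnip* and *Arrdc4*, encode related arrestins that limit glucose uptake. *Txnip* measured 186 and 186 CPM for Veh, 131 and 125 for RA, 168 and 167 for NR, and 87.2 and 91.2 for NRRA. It was 2.08-fold lower in NRRA than in Veh (edgeR, adjusted p = 1.76e-16). *Arrdc4*, which carries the E-box shown above, measured 73.7 and 77.4 CPM for Veh, 77.3 and 80.2 for RA, 46.7 and 44.5 for NR, and 55.6 and 56.3 for NRRA. It was 1.35-fold lower in NRRA than in Veh (edgeR, adjusted p = 1.58e-07) and 1.23-fold higher in NRRA than in NR (adjusted p = 0.000103).

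**Figure D5:**
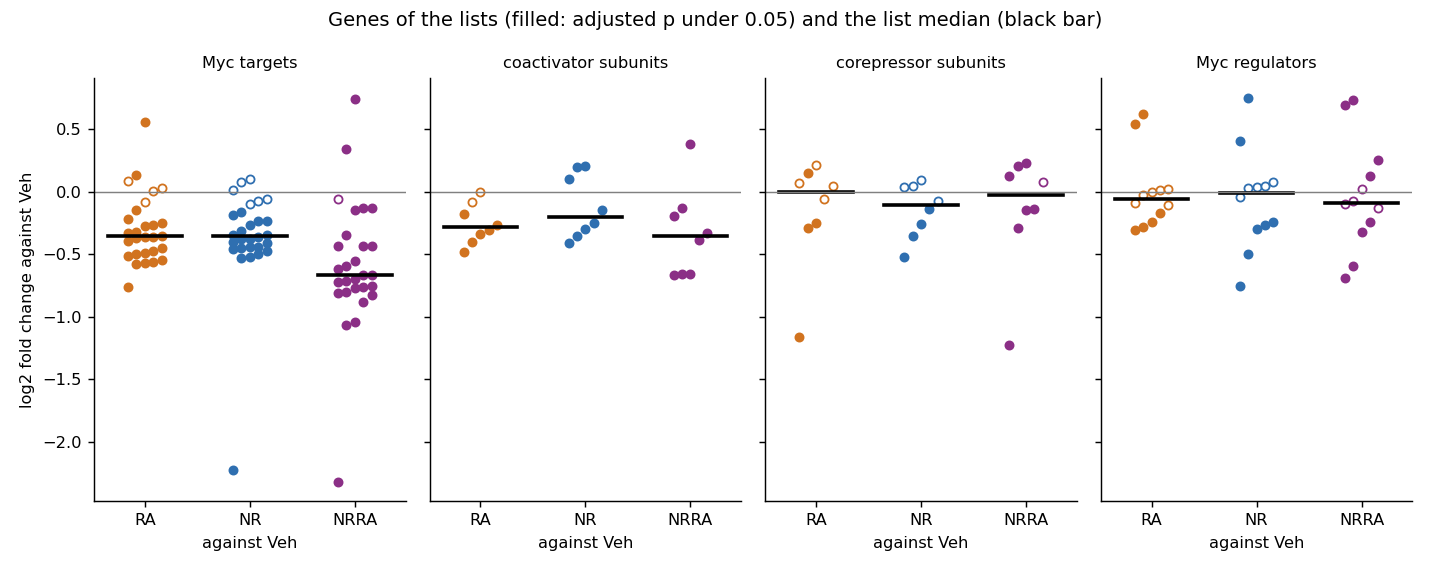
Log2 fold change against Veh (vertical axis) of each gene of 4 lists in RA, NR and NRRA (horizontal axes); filled points passed an adjusted p of 0.05 and black bars are list medians. The median of the Myc targets lies at -0.36 in RA and NR and at -0.67 in NRRA, and the lowest points are *Odc1*.

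The genes whose log2 CPM followed each Myc gene most closely over the 8 libraries were sought among 14806 genes whose mean count was 50 or more. For *Mycn* they were *Sdc4*, a heparan sulfate proteoglycan (Pearson r = 0.998, mean levels 499, 179, 463 and 103 CPM from Veh to NRRA), the helicase gene *Pif1* (r = 0.997) and the RNA-binding *Larp1* (r = 0.996). For *Myc* they were *Lrig1*, a receptor inhibitor (r = 0.996), the keratin gene *Krt19* (r = 0.995) and the ubiquitin ligase gene *Mkrn1* (r = 0.995). For *Mycl* they were the protease gene *Bace1* (r = 0.994), *Dkk3*, of the Dickkopf family (r = 0.991), and *Fam20a*, of secreted kinases (r = 0.990). A high r does not mean a change of like size. Mean levels went from 427 in Veh to 276 CPM in NRRA for *Larp1* and from 12.8 to 1.69 CPM for *Krt19*. For *Bace1* they were 97.5 CPM in Veh and 118 CPM in NR. The 8 points are 2 libraries of each of 4 conditions, and r over 0.95 was reached by 374 genes for *Mycn*, 671 for *Myc* and 153 for *Mycl*.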

How the data were processed

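RNA-seq counts of 8 libraries were analysed, with conditions and replicate numbers taken from the sample labels; the study describes the replicates as independent biological ones. The authors deposited raw counts of reads per gene, without normalization; per the labels, processing used bcl2fastq, STAR 2.6.1c, featureCounts 1.6.4 and the mm10 build. The labels and the study's methods name different library kits and STAR versions, and the strand setting is not given in the sources used here. All 8 columns of counts were matched to samples. Gene positions came from GENCODE M21 on GRCm38 (55240 of 55421 identifiers matched), promoters from RefSeq.

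Counts were analysed in R 4.3.3 with edgeR 4.0.16 (filterByExpr, TMM, quasi-likelihood F test, 4 conditions, 4 residual degrees of freedom, Benjamini-Hochberg within each of 7 comparisons); the fit was tested on simulated data. The standard error is the absolute log2 fold change divided by the square root of F. Alternatives were DESeq2 1.42.0, other scalings, no low-count filter, a replicate block, removal of GC and length trends, 2 groups only and leaving out each library. Libraries held 19261333 to 30023585 counts, and *Mycl*, with 75 to 316 counts per library, was measured least precisely.

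All 10 network genes, the partners *Max*, *Mga* and *Mlxipl*, both Mlx targets, and in each other list the 3 genes with the largest log2 fold change in NRRA against Veh (adjusted p under 0.05, mean of at least 50 counts) were named, as were the 3 genes most correlated with each Myc gene; 1 gene that this rule names is not reported here. The network genes and the lists were chosen with earlier results of these data known.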

Additional observations from a re-analysis of the deposited data

Results flagged for a closer look

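The interaction was looked up for the network genes, the partners and the other list genes named above, not for marker or correlated genes. For 9 of them, the response to RA differed between restricted and complete medium by edgeR's test of the interaction (adjusted p under 0.05). Over all tested genes, 13.0% passed this test. Most of the list genes had been named for their large changes in NRRA against Veh, so the 9 give no rate for the network. The values are the log2 response in restricted medium minus that in complete medium. *Mycn* had -0.99, *Mycl* -0.68 and *Mnt* -0.24, the last 2 not called in several alternatives. *Mga*, the Max partner, had -0.42, with an RA response of 0.38 in complete and -0.05 in restricted medium. *Pim1*, the kinase, had -0.59, with responses of 0.54 and -0.06. *Txnip*, the Mlx target, had -0.37, with responses of -0.54 and -0.91, and *Arrdc4*, the other Mlx target, had 0.24, with 0.06 and 0.30. *Sap18*, the Sin3-associated subunit, had 0.32, with -0.25 and 0.06, and *Odc1* had 0.24, with -0.33 and -0.09. The RA difference passed the test in opposite directions in the 2 media for *Mycl*. For *Mga*, *Pim1*, *Sap18* and *Odc1* it passed in complete medium and not in restricted medium, and for *Mnt* and *Arrdc4* the reverse.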

How the results depend on the processing

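Of 70 log2 fold changes of the 10 network genes, 36 kept their direction and their side of the threshold in every alternative, as did 974 of 1110 alternative values in all. All 50 values that changed sign belonged to differences that were not called. With library totals, the median of all genes shifted by up to 0.113 on the log2 scale, and small differences should be read against this shift. Counts of 75 to 131 per library for *Mycl* in Veh and RA limit its smaller differences. Deviations of same-numbered libraries hardly correlated between conditions (-0.0716 to 0.0778, 14806 genes). Whether these libraries came from paired cultures is not given in the sources used here, and they were treated as unpaired. With the replicate block, 67 of 70 values kept their call and 1 was lost (*Mnt*, interaction, -0.24). Gained were 2 calls (*Mxd3*, NRRA against NR, -0.20, and *Mlxip*, NRRA against Veh, 0.11). The cause of these and the following changes was not tested.

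The number of network genes called changed by over 1.5 times as follows. For RA against Veh it was 3 with 2 groups only and 2 to 4 when leaving out each library. For NRRA against NR, leaving out each library gave 2 to 6. The interaction gave 1 with DESeq2 and 1 to 4 when leaving out each library. At 2-fold, leaving out each library gave 0 to 2 for NRRA against RA and 1 to 2 for NR against RA.

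Sign changes, all of uncalled values, were these. With DESeq2: *Mxd1* NRRA vs NR -0.0058, *Mxd4* interaction -0.0094, *Mnt* NRRA vs RA -1.3e-05 and *Mlx* RA vs Veh -0.0021. With DESeq2 size factors: *Mxd1* NRRA vs NR -0.0073, *Mxd4* interaction -0.0093 and *Mlx* RA vs Veh -0.00098. With library totals: *Mxd4* interaction -0.014, *Mxi1* NRRA vs Veh 0.042, *Mnt* RA vs Veh 0.012, *Mnt* NRRA vs Veh 0.044, *Mlx* NRRA vs NR 0.067, *Mlxip* NR vs RA -0.057 and *Mlxip* interaction -0.0015. Without the low-count filter, *Mlx* RA vs Veh was -0.0079. With the GC and length trend removed, without and with the replicate block: *Mnt* RA vs Veh 0.022 and 0.022, *Mnt* NRRA vs Veh 0.026 and 0.026, *Mlx* NRRA vs NR 0.011 and 0.012, *Mlx* interaction 0.0036 and 0.0055, and *Mlxip* NR vs RA -0.075 and -0.076. Leaving out each library gave -0.11 to 0.025 for *Mycn* NR vs Veh, -0.055 to 0.056 for *Mxd1* NRRA vs NR, -0.10 to 0.017 for *Mxd3* NR vs RA, -0.073 to 0.24 for *Mxd3* interaction and -0.084 to 0.024 for *Mxd4* interaction. It gave -0.014 to 0.049 for *Mnt* NRRA vs RA, -0.031 to 0.032 for *Mlx* RA vs Veh, -0.054 to 0.0048 for *Mlx* NRRA vs NR and -0.076 to 0.018 for *Mlx* interaction. For *Mlxip* it gave -0.0092 to 0.091 for RA vs Veh, -0.040 to 0.059 for NR vs RA and -0.043 to 0.069 for the interaction.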
